A study of Mus musculus with 4 samples.

Results

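Transcripts of 7 splicing factor genes, Srsf4, Srsf6, Tra2a, Srrm2, Luc7l2, Snrnp70 and Prpf38b, carried 11 of the 900 DDX5 binding peaks that the authors found reproducible. The genes were taken by name from the peak list, in which 459 genes are named, so they were chosen by the same measured values that made the list, the enrichment and p of their peaks, and having a peak is not a result. For scale, 1.81% of the 21896 protein-coding genes of the RefSeq table had a peak.

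DDX5 is a DEAD-box RNA helicase, and its bound RNAs were mapped by eCLIP, in which RNA is crosslinked to protein with ultraviolet light, trimmed with RNase and recovered with the protein. The cells were naive CD4 T cells of wild-type female C57BL/6 mice, polarised towards Th17 cells in culture for 72 h with TGFb and IL6 while stimulated by antibodies to CD3 and CD28. The mice were 8 weeks old by the growth protocol, and the series' design text gives 2 mice of 8 to 10 weeks. The libraries were 2 immunoprecipitates (IP) with an antibody to DDX5 and 2 inputs without antibody, numbered 1 and 2 in both groups, and all 4 share genotype and treatment. The replicates were merged into 1 value per peak, which leaves no replicate error to print, and library depth is unknown. The list names bound RNAs and not expression levels: Rora and Ahr were the 2 of 10 Th17 markers with a peak, and 0 of 7 general T cell markers had one.

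SR proteins are RNA-binding proteins with a domain rich in arginine and serine that help the spliceosome to find exons. U1 small nuclear ribonucleoprotein (snRNP) recognises the 5′ splice site at the start of an intron. Many genes of this group are known to make, beside the coding mRNA, transcripts that keep an intron or include an exon with an early stop codon. The second kind is open to nonsense-mediated decay (NMD), which degrades RNA with an early stop.

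For 2 of the intronic peaks a sequence could be shown from RefSeq (build GRCm38.p6, the same assembly as mm10). The 2nd Srrm2 peak runs into the hairpin of a microRNA gene, Mir5125, at chr17:23823291-23823369 on the plus strand, inside an Srrm2 intron. Capitals in the hairpin mark the 35 bases under the peak, and capitals in the mature microRNA mark its seed, bases 2 to 8.
Mir5125 hairpin: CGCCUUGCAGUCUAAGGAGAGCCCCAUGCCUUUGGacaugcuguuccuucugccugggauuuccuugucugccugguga
mmu-miR-5125: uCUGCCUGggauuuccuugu
The peak covers the 5′ part of the hairpin and ends before the mature microRNA, whose first base lies 14 nt after the last base of the peak. The Srsf4 peak is shown by its first 30 bases, at chr4:131874061-131874090 on the plus strand, because it begins 1 nt after a start of transcription in RefSeq.
Srsf4 peak: ggtggcgggataatggggacggaggcccgg

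Peak height was spread over much of the range of the list and was not high as a group. The 11 peaks had a median log2 enrichment of IP over input of 5.25 (37.9-fold), with a range of 4.02 to 6.53, beside a median of 5.31 and quartiles of 4.64 and 5.84 over all 900 peaks. Of the 11, 5 lay above that median. These enrichments are the authors' own peak values and describe peaks within this list only. The −log10 p of the peaks ran from 3.27 to 19.5, and none stood at the ceiling of 400. The peak of Srsf4 and the Srrm2 peaks of 5.90 and 5.95 lay above the upper quartile. Those of Srsf6, Prpf38b and Tra2a lay below the lower quartile.

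**Figure D1:**
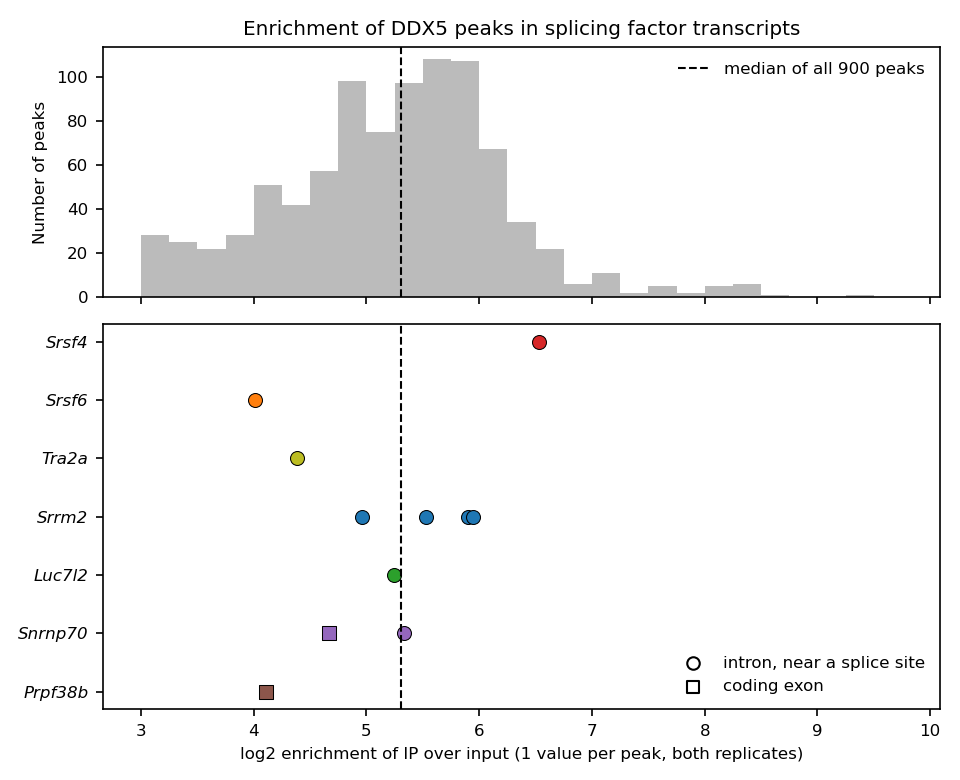
Top, histogram of log2 enrichment of IP over input for all 900 peaks (y axis, number of peaks). Bottom, the 11 peaks of the 7 genes on the same x axis, circles for introns near a splice site and squares for coding exons, with the dashed line at the median of all peaks (5.31). Srsf4 stands highest at 6.53 and Srsf6 lowest at 4.02.

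By the authors' annotation, 9 of the 11 peaks (81.8%) were intronic and near a splice site, and 2 were in coding exons. Without Srrm2, 5 of 7 were of the near class. Over all peaks the near class held 242 (26.9%) and coding exons 93 (10.3%). All peaks include those of noncoding genes, such as 111 in noncoding exons (12.3%). Peaks of the near class lay at most 498 nt from a splice site. None of the 11 was in the authors' distant intron class, which held 271 peaks of the list (30.1%), and none was in a 5′ UTR (149 peaks, 16.6%). The distant class is the authors' label. Some of its peaks also lay close to an annotated splice site, such as one 10 nt from a 5′ splice site. With 7 genes, no test of these shares was made.

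Among the SR proteins, Srsf4 carried the highest peak. It encodes a large SR protein. Its single 67-nt peak, on chromosome 4 from 131874061 to 131874127, had a log2 enrichment of 6.53 (92.7-fold) and a −log10 p of 13.5. Of all peaks, 93.6% were lower, and 32 genes of the list had a higher one. The peak lay 190 nt downstream of a 5′ splice site. That site starts both annotated introns over the peak, one of 17336 nt in the coding transcript and one of 10405 nt in an NMD transcript. The peak was thus upstream of both alternative 3′ splice sites, 10148 and 17079 nt from them. RefSeq gives 3 start windows for Srsf4, and the start of one, at 131874060, is the base before the peak. Its window ends inside the peak, so 49 of the 67 bases could be read, and 71.4% of these were G or C. At the same place of 32851 RefSeq windows the median was 55.1%, and 83.6% of windows were lower. Srsf4 was the only gene of the 7 with a peak over the first 50 bases after a RefSeq start, as were 30 of the 900 peaks (3.33%). For a transcript from that start the Srsf4 peak lies at the beginning, whereas the authors' annotation has only introns over it. It is counted as intronic here by the authors' annotation.

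Srsf6, another classical SR protein, had the lowest peak of the group but the smallest p. The 54-nt peak on chromosome 2 from 162932227 to 162932280 had a log2 enrichment of 4.02 (16.2-fold), and 11.7% of peaks were lower. Its −log10 p of 19.5 ranked 270th of 900. The peak began 84 nt after a 5′ splice site that is joined to 3′ splice sites 534 or 1145 nt downstream of the peak. The nearer one is used by an NMD transcript and by a coding transcript. The whole peak also lay in a 1557-nt exon (162931994 to 162933550) of a retained-intron transcript, a class in which intron sequence is kept. Here the exon spans both annotated introns over the peak.

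Tra2a, a sequence-specific activator of exon inclusion related to the SR proteins, also had a peak downstream of a 5′ splice site shared by coding and NMD transcripts. It lay on the minus strand of chromosome 6. Its 116-nt peak from 49263489 to 49263604 had a log2 enrichment of 4.39 (20.9-fold) and a −log10 p of 11.7. It began 233 nt after a 5′ splice site that leads to an intron of 11322 nt in coding transcripts and of 10729 nt in an NMD transcript. A retained-intron transcript has a 3788-nt exon (49260243 to 49264030) that holds the whole peak. Unlike that of Srsf6, this exon is the whole of its transcript and ends inside the intron, before either 3′ splice site.

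Srrm2 encodes a very large serine- and arginine-rich protein that builds nuclear speckles, and it had the most peaks of the group. In transcript order, its 4 peaks on chromosome 17 had log2 enrichments of 4.96, 5.90, 5.95 and 5.53, a mean of 5.59 ± 0.46 (SD over 4 peaks). In the whole list, 50 genes, Srrm2 among them, had at least 4 peaks. The 1st peak (23812102 to 23812182) lay in a 696-nt intron, 370 nt after its 5′ splice site and 245 nt before its 3′ splice site. In an NMD transcript the 5′ splice site of that intron is shifted and lies 24 nt before the peak. The other 3 peaks shared a 1090-nt intron (23822701 to 23823790) 93.1 to 95.2% along the gene and covered 244 nt of it (22.4%). Their starts were 490, 893 and 984 nt after its 5′ splice site, and the last of them ended 56 nt before its 3′ splice site. The gaps between them were 268 and 32 nt, so the last pair may be pieces of 1 site.

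The peaks of Srrm2 overlapped other annotated products of the locus. The 1st lay whole in a 721-nt exon of a retained-intron transcript (23811900 to 23812620). The 3rd (23823594 to 23823652) and 4th (23823685 to 23823734) lay whole in a 380-nt exon of another (23823525 to 23823904). The 2nd (23823191 to 23823325, 135 nt) lay in no such exon and was the one that reached into the Mir5125 hairpin shown above. Over the whole list, 13 peaks (1.44%) touched an annotated microRNA gene on the same strand.

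Luc7l2, a protein associated with U1 snRNP that takes part in choosing 5′ splice sites, had a peak right beside such a site. The 59-nt peak on chromosome 6 from 38551940 to 38551998 had a log2 enrichment of 5.25 (37.9-fold) and a −log10 p of 11.2. It began 31 nt after a 5′ splice site used with 3 alternative 3′ splice sites, in introns of 3071, 7295 and 18601 nt. The 7295-nt intron belongs to an NMD transcript. In a further noncoding transcript the exon runs on to 38551944, so that this later 5′ splice site falls inside the peak, 5 nt from its start.

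Snrnp70 encodes the U1-70K protein of U1 snRNP and had peaks at 2 places on the minus strand of chromosome 7. The upstream one (45381173 to 45381255) had a log2 enrichment of 5.33 (40.2-fold) and a −log10 p of 8.96. It lay 354 nt before the 3′ splice site of a 2985-nt intron of the coding transcripts. That 3′ splice site is shared with introns of 2306 nt in an NMD transcript and 1006 nt in a retained-intron transcript. The peak lay whole in exons of 2468 and 601 nt of another pair of retained-intron transcripts.

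The downstream Snrnp70 peak (45376683 to 45376777, 95 nt) was classed as coding exon, with a log2 enrichment of 4.67 (25.4-fold) and a −log10 p of 11.1. In the main coding transcript it lay in the last exon, 501 nt from the start of that exon. Other coding transcripts splice out part of the exon, and their 3′ splice sites fall at the peak. In one the site is inside the peak, followed by 19 coding bases and then a stop codon (45376692 to 45376694) under the peak. In the other it lies 6 nt past the end of the peak. The peak was therefore coding, intronic or partly 3′ UTR depending on the transcript.

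Prpf38b, a serine- and arginine-rich protein related to a component of the spliceosome, had the peak with the weakest statistical support. The 144-nt peak on the minus strand of chromosome 3 (108904289 to 108904432) had a log2 enrichment of 4.11 (17.3-fold). Its −log10 p of 3.27 was just over the minimum of 3 and ranked 896th of 900. It lay in a coding exon, 330 nt from the start of the exon. In 2 NMD transcripts the same bases are 3′ UTR, and a retained-intron transcript also includes them as exon.

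**Figure D2:**
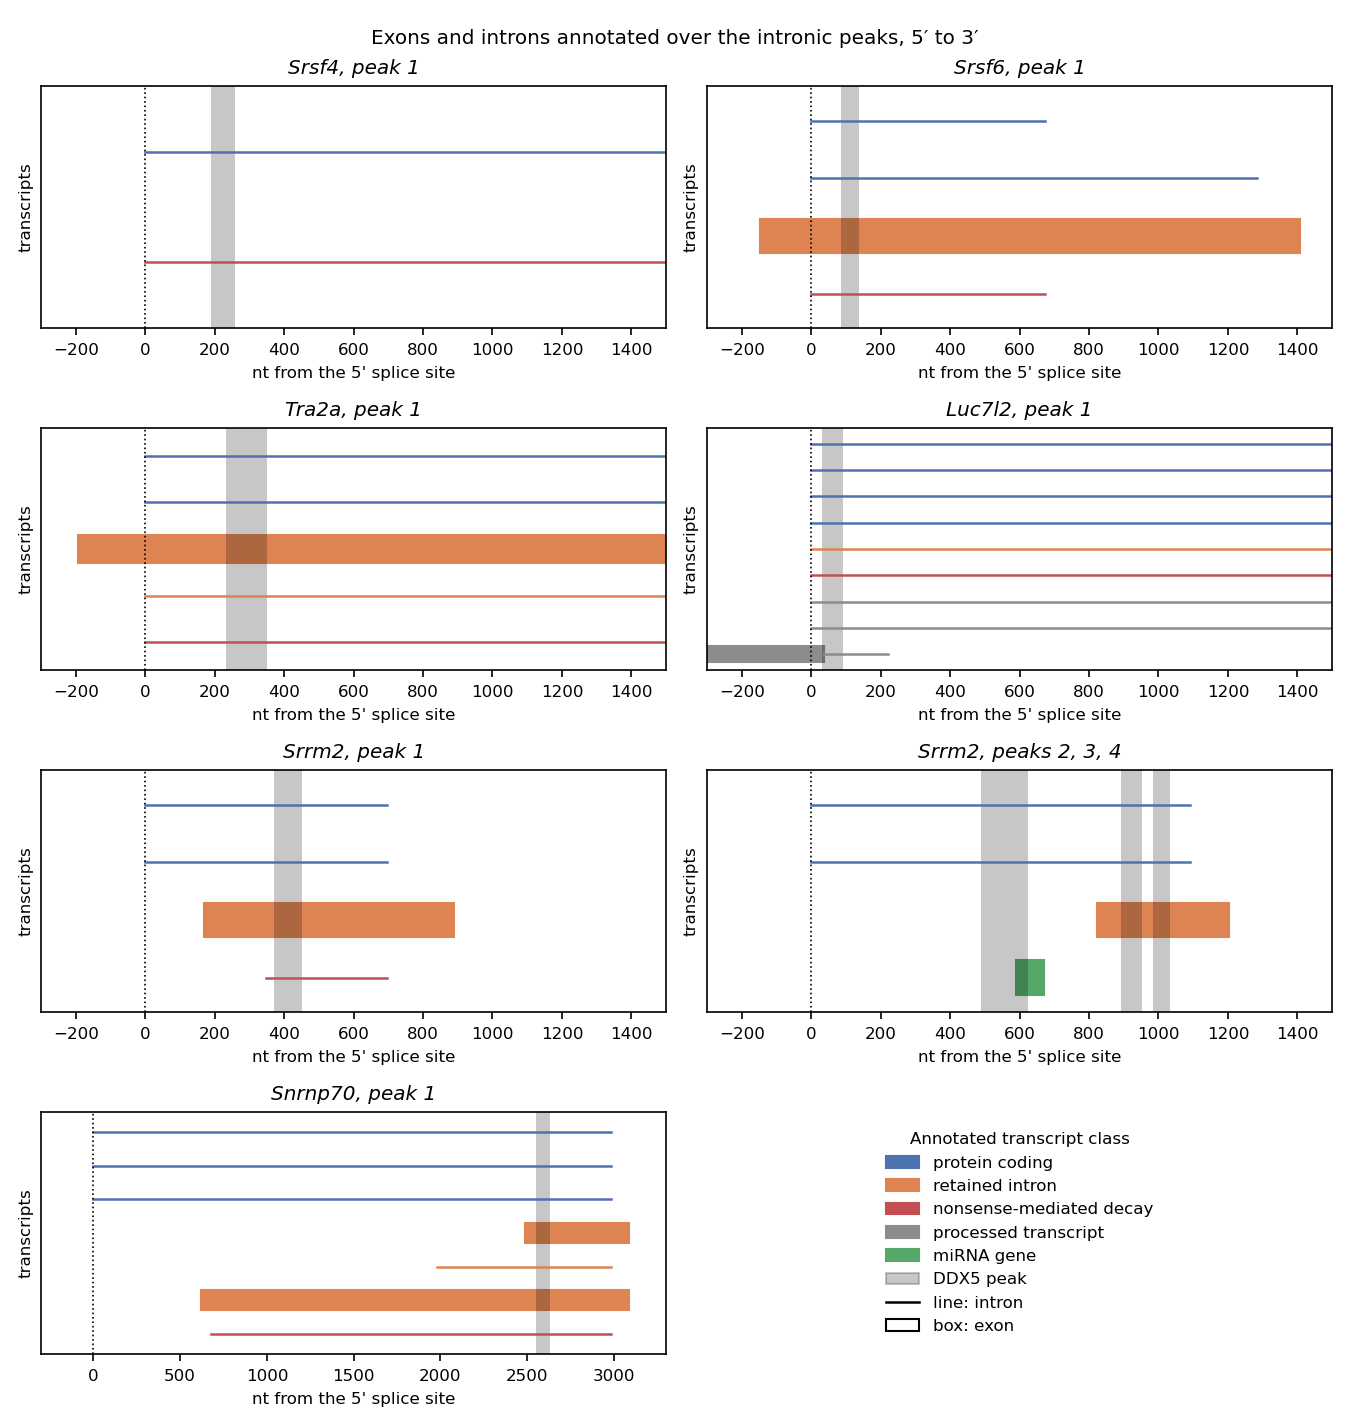
Annotated introns (lines) and exons (boxes) over each intronic peak, coloured by transcript class, with the x axis in nt from the 5′ splice site of an intron of the coding transcripts (dotted line) and transcripts stacked on the y axis. Grey bands are the peaks, and only features that overlap a peak are drawn. Retained-intron exons hold the peaks of Srsf6, Tra2a and Snrnp70 and 3 of the 4 of Srrm2, but not those of Srsf4 and Luc7l2.

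Most of the intronic peaks of these genes lay in sequence that a transcript annotated as retained intron keeps as exon. Exons of other transcript classes were not counted. Of the 9 peaks of the near class, 6 lay whole in a retained-intron exon (66.7%, exact Clopper-Pearson 95% interval 29.9 to 92.5). Among the 233 other peaks of that class, 21 did (9.01%, 5.67 to 13.4). Counted by gene, it was 4 of 6 (Srsf6, Tra2a, Srrm2 and Snrnp70) against 18 of 167 others (10.8%). Without the 4 peaks of Srrm2 it was 3 of 5. Only in Srsf6 did such an exon span a whole intron of a coding transcript over the peak. In Tra2a, Srrm2 and Snrnp70 the exons covered part of the coding intron, so the overlap does not mean that this intron is kept whole. The intervals cover counting error only, and peaks of 1 gene share their source. This overlap was looked at after the peaks had been seen, and no test was made.

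The number of transcripts annotated over a peak was 2 to 9 for the 9 peaks (median 4) and 1 to 20 for the 233 others (median 3). With 3 or 4 transcripts, 4 of 5 peaks of the group (3 of Srrm2 and the one of Srsf6) lay in a retained-intron exon and 2 of 49 others did (4.08%). With 5 to 9 transcripts it was 2 of 3 (Tra2a and Snrnp70, not Luc7l2) against 10 of 66 (15.2%). With 10 or more there was none of the group and 9 of 22 others (40.9%). With 1 or 2 transcripts, neither the peak of Srsf4 nor any of 96 others did. In other genes the share thus rose with the number of annotated transcripts, and the part of that number in the result was not tested. The number includes the retained-intron transcript itself, so it is not independent of the overlap. For the 2nd Srrm2 peak it includes the Mir5125 gene.

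**Figure D3:**
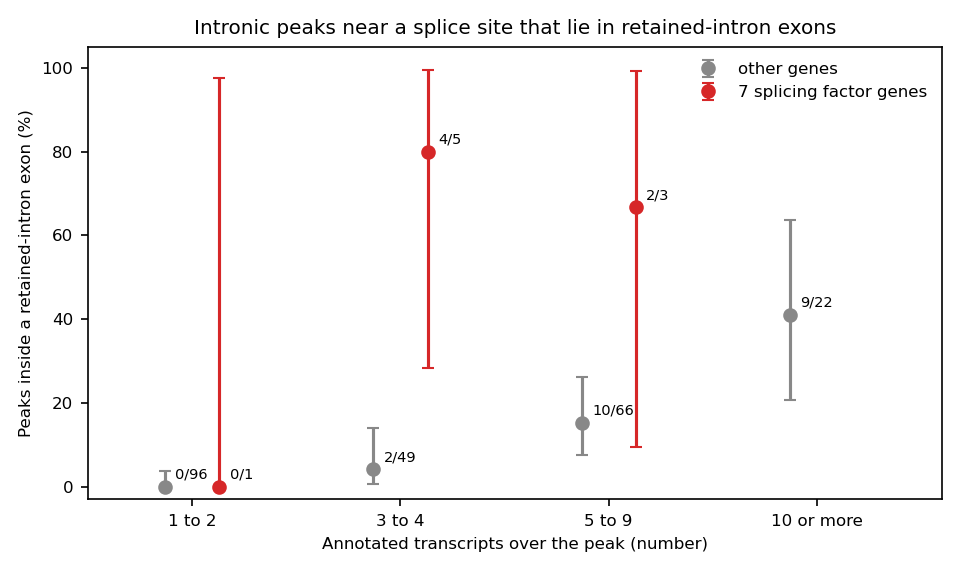
Percentage of near-splice-site intronic peaks that lie whole in an exon of a retained-intron transcript (y axis), by the number of annotated transcripts over the peak (x axis). Points are shares with exact 95% intervals, labelled with their counts. In red, the splicing factor genes reach 4 of 5 and 2 of 3 where other genes (grey) have 2 of 49 and 10 of 66.

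Transcripts open to NMD were also frequent over these peaks. One was annotated over 6 of the 9 intronic peaks (66.7%), against 58 of the 233 others of the class (24.9%). Among the 191 of these others with at least 2 annotated transcripts, as all 9 had, the share was 30.4%. No test was made. In Srsf4, Srsf6, Tra2a and Luc7l2 the NMD intron kept the 5′ splice site upstream of the peak and ended at another 3′ splice site than a coding intron. In Srsf6, however, another coding transcript has the same intron as the NMD transcript. In Srrm2 and Snrnp70 it kept the 3′ splice site downstream of the peak and began at another 5′ splice site.

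Within introns, some peaks lay at the 5′ side and others at the 3′ side. Splice sites were taken from annotated introns that hold the whole peak. In Srsf4, Srsf6, Tra2a, Luc7l2 and the 1st peak of Srrm2 the nearest such site was a 5′ one, 24 to 233 nt away. In the other 3 peaks of Srrm2 and the intronic peak of Snrnp70 it was a 3′ one, 56 to 465 nt away. So 5 of 9 were closer to a 5′ site, whereas 209 of the 233 other peaks of the class were (89.7%). The 1st Srrm2 peak counts as such by its NMD intron only, and in the coding intron the 3′ site was nearer (245 against 370 nt). Without Srrm2, 3 of whose peaks share an intron, it was 4 of 5 (80%), so the difference from the other peaks rests largely on that gene.

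**Figure D4:**
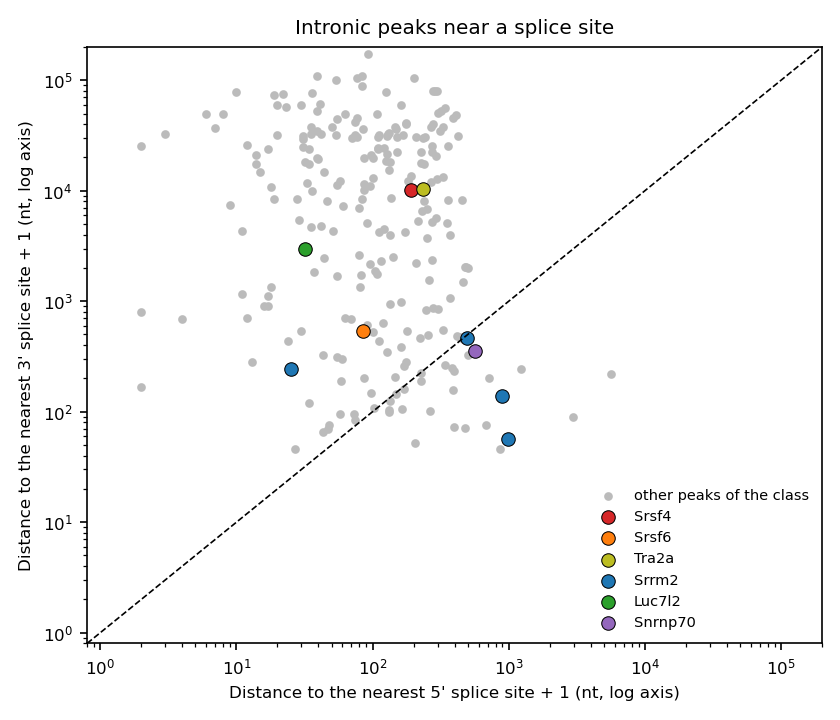
Distance of each near-splice-site intronic peak to the nearest 5′ splice site (x axis) and 3′ splice site (y axis), both in nt plus 1 on log axes. Sites are those of annotated introns that hold the whole peak. Grey points are the 233 other peaks of the class and coloured points the 9 peaks of the splicing factor genes. Points above the dashed diagonal are closer to a 5′ splice site, as 5 of the 9 are, and 4 lie below it.

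The peaks of 4 genes lay close to the start of the gene and those of the other 3 far from it. Midpoints lay 477 nt from the start of the longest coding transcript in Srsf4, 484 in Tra2a, 504 in Luc7l2 and 726 in Srsf6. The other 7 peaks, of Srrm2, Snrnp70 and Prpf38b, lay 7367 to 20523 nt from it, which is 41.6 to 98.6% along the transcript. Within 1 kb of the start were 4 of 11 peaks (36.4%), beside 382 of 754 other peaks in coding transcripts (50.7%). Without Srrm2 it was 4 of 7 (57.1%) and the median distance fell from 8955 to 726 nt, so both rest largely on that gene. Closeness to the start was common in the near class. There, 4 of the 9 peaks lay within 1 kb (44.4%), or 4 of 5 without Srrm2, beside 179 of the 233 others (76.8%).

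The wider splicing machinery was covered by 9 lists with 125 genes in the RefSeq table, of which 10 had a peak (8.0%, beside the 1.81% of all protein-coding genes). The 7 genes above are among these 10 and had been chosen for their peaks, so this count is a description. In the list of SR proteins, which here includes Tra2a, 3 of 13 genes had a peak. Elsewhere it was 3 of 20 SR-related proteins, 1 of 9 kinases of SR proteins, 2 of 11 for U1 snRNP and associated proteins, and 1 of 21 for the tri-snRNP and B complex. No peak was named for the 8 Sm core genes, 16 genes of U2 snRNP and 3′ splice site recognition, 18 of the catalytic spliceosome or 9 of the minor spliceosome. A missing peak does not show that DDX5 did not bind. The other 3 genes with a peak were Dyrk1a, a kinase of splicing factors among other targets, Bclaf1 and Rbm25. The log2 enrichments of their highest peaks were 6.20 and 4.83, both in the near class, and 4.26 in the distant class. That peak of Rbm25 nevertheless lay 128 nt from an annotated 5′ splice site.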

How the data were processed

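eCLIP libraries were made from 2 IP and 2 input samples, grouped by title. Reads were processed on mm10 with STAR 2.4.0i, cutadapt 1.9.1 and SAMtools 1.4.1, per the submitters' processing notes. The deposited settings normalise every IP to the input of its number, combine replicates by irreproducible discovery rate and set minimums of 3 for the log2 fold and 3 for −log10 p. Per the file headers, the authors' peak table holds a log2 enrichment and a −log10 p for each peak. Not given in the sources used here are the peak caller, the reproducibility threshold and the annotation release. Joining of replicates leaves no replicate error, and enrichment depends on input coverage, which is unknown.

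Exons, introns and transcript classes were read from the annotation that the authors deposited with each peak, on the same strand. Coordinates were converted from starts at 0 to starts at 1. Distances run from the peak edge to the splice site, and from the midpoint to the start of the longest coding transcript over the peak. Neighbouring peaks up to 50 nt apart were joined as an alternative. All 7 genes matched RefSeq start windows (250 nt before to 50 nt after a start). Python 3.11.15, pandas 2.3.3 and SciPy 1.17.1 were used, and the distance and joining steps were tested on simulated peaks. All 7 genes with every peak and every listed splicing gene with a peak were named. The members and lists were chosen with earlier results of these data known.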

Additional observations from a re-analysis of the deposited data

How the results depend on the processing

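The shares, medians and counts were recomputed for peaks with a log2 fold of at least 4, for peaks with a −log10 p of at least 10 and, where it applied, with neighbours joined, with 1 value per gene, without small RNA genes, from the peak edge, with any overlap of a retained-intron exon, or without Srrm2. The overlap alternatives and those without Srrm2 were chosen after seeing the data. Position moved by more than 1.5 times under 2 of them. The median distance from the transcript start was 8955 nt over 11 peaks, 726 nt over the 7 with a −log10 p of at least 10, and also 726 nt over the 7 left without Srrm2. The share within 1 kb of the start was 36.4% over all 11 and 57.1% in both of these sets. The first set leaves out 3 of the distant peaks of Srrm2 and Snrnp70 and that of Prpf38b. The other 20 alternative values stayed within the spread over peaks, the exact 95% interval or 1.5 times the value reported. The median log2 enrichment was 4.67 without Srrm2, and the share of intronic peaks in retained-intron exons ran from 50% to 66.7% over its alternatives. No paired analysis was possible because the files give 1 value per peak for both replicates. For the same reason no alternative without a replicate was run, and the effect of depth is unknown.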

Other observations

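The transcript that the authors' table names for a peak did not always carry the region class given to that peak. The coding-exon peak of Snrnp70 is assigned to a transcript in which it is intronic, and that of Prpf38b to an NMD transcript in which it is 3′ UTR. Over the whole list, 238 of 900 peaks (26.4%) are assigned to a transcript without a feature of the called class at the peak, so class and transcript are best read separately.

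Intronic peaks inside a retained-intron exon are exonic in that transcript, but the authors' classes count them as introns. This was so for 6 of the 9 intronic peaks of the splicing factor genes, all of the near class. With these included, it was so for 27 of the 242 peaks of that class (11.2%). Over all 513 intronic peaks of coding genes, near and distant, it was so for 29 (5.65%).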
